A study of Mus musculus with 47 samples.

Results

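The Cast and the Mus allele of the same cell were compared gene by gene for 3729 autosomal genes outside chromosome 1. These were the genes with a mean of at least 5 allelic counts per cell, both alleles summed, among 12625 such autosomal genes and 13947 genes in all. A further 304 genes of chromosome 1 reached the same level and were set aside. At the limit, 7 genes with exactly 235 counts over the 47 cells were included, with log2 ratios of Cast over Mus from -1.51 (Tead2) to 5.52 (1700030K09Rik), and 9 genes with 234 counts were not, among them Rtn4ip1 with a log2 ratio of -0.81 and Fbxo32 with 2.41.

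The study followed X chromosome dosage during reprogramming of fibroblasts to induced pluripotent stem cells (iPSCs). The 47 cells are single female iPSCs of 1 plate, cultured in serum with LIF and ascorbic acid and sorted into a mix with a GpC methylase before their mRNA was captured. Their mother was Mus musculus musculus (here Mus) with a GFP transgene on the X chromosome, and their father was Mus musculus castaneus (Cast). All had been reprogrammed from embryonic fibroblasts with a lentiviral cassette of Oct4, Sox2, Klf4 and c-Myc under a doxycycline-driven promoter. The study's methods describe control iPSCs as picked colonies passaged with neither doxycycline nor ascorbic acid, while the labels of these cells name ascorbic acid, and the number of colonies on the plate is not given in the sources used here. The column names of the table put 23 cells in a class with both X chromosomes, 15 in a class with the Cast X and 9 in a class with the Mus X. The labels name no separate cultures or clones, so the cells were not treated as replicates, and no gene was tested. A size limit of 2-fold between the summed counts stood in for a test. Every Cast allele came from the father, and no reciprocal cross was analysed, so strain and parent of origin cannot be told apart.

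In an F1 hybrid both alleles share 1 nucleus, and with it the same transcription factors, culture medium and RNA preparation. A difference between the alleles is therefore usually read as a difference in cis, which lies on the chromosome itself, for example in a promoter, an enhancer, a splice site or a sequence that sets RNA stability. Genes are also known to be transcribed in bursts, so that a single cell can hold RNA of 1 allele for a while even where both alleles are used equally over time.

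The cells held 71682 to 216451 allelic counts each (median 167041), with 1 cell under 100000. The 3729 genes took 49260 to 147688 of these per cell, 64.7% of all counts. The counts are sums over SNP positions without molecular identifiers, and 28474 values of a gene in a cell were 2 while 712 were 1, so a count is not an independent molecule. Intervals below are 95% Clopper-Pearson intervals and cover counting error only. As a check of the allele assignment, 124 of 1620088 counts of 9 mitochondrial genes, which are inherited from the mother, were given to Cast, a share of 0.00765% (0.00637 to 0.00913%). All 9 pluripotency markers in the table were read at a mean of at least 5 counts, with 314 to 2169 counts per cell for the list. Of 8 fibroblast markers 4 had reads, with 3 to 207 counts per cell for the list, and Col1a2, Lum, Dcn and Postn were at 0, while the endoderm markers were at 0 in 46 cells. Names such as B4 give a cell's row and column on the plate.

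More genes were higher from Cast than from Mus. At least 2-fold more counts came from Cast for 817 genes (21.9% of those compared) and from Mus for 271 genes (7.27%), together 1088 genes (29.2%). With the median over cells of the Cast share in place of the sum these were 1064 and 557 genes. At 4-fold these were 403 (10.8%) and 73 (1.96%). In 1254 genes (33.6%) the alleles were within 25% of each other, the higher over the lower. The median log2 ratio of Cast over Mus was 0.17, a fold of 1.12, with quartiles of -0.29 and 0.83 and a 5th and 95th percentile of -1.28 and 3.46. The upper tail was thus longer than the lower. In every cell the Cast allele took more than 50% of the counts of these genes, between 54.5% and 57.5% (median 56.3%). With ratios centred on their median, 710 genes were past 2-fold from Cast and 344 from Mus, so that the Cast share of such genes was 67.4% in place of 75.1%.

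**Figure D1:**
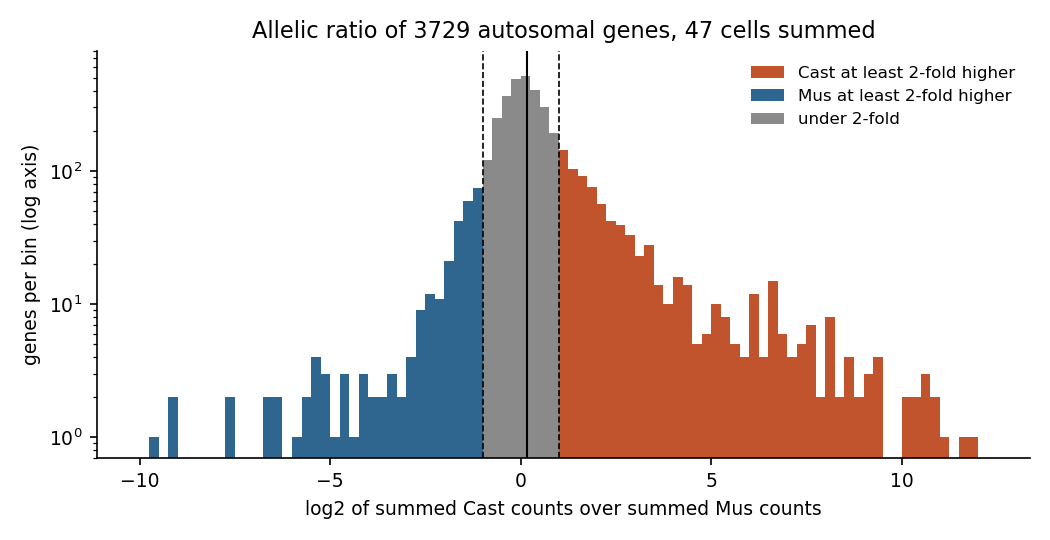
Histogram of the log2 ratio of summed Cast over summed Mus counts for the 3729 genes, in bins of 0.25 with a logarithmic axis for the number of genes. Genes with no count of an allele are placed at their bound against a floor of 3 counts. Dashed lines mark 2-fold and the solid line the median of 0.17. The Cast tail holds 817 genes and the Mus tail 271.

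Genes with few counts were past 2-fold more often. With genes divided by their counts into 4 groups of like size, 36.3% were past 2-fold either way in the lowest group (5 to 7.81 counts per cell) and 29.3%, 25.3% and 25.8% in the next 3. From the lowest to the highest group, the share higher from Cast went from 25.2% to 20.1% and the share higher from Mus from 11.1% to 5.69%. At every level more genes were thus higher from Cast. The Cast share over autosomal genes had a median of 56.4% in the cells with both X chromosomes, 56.3% in those with the Cast X and 56.2% in those with the Mus X, and the ranges of the 3 kinds of cell overlapped.

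Among genes past 2-fold with at least 5% of counts from the lower allele, the heat shock protein Hsp90aa1, a chaperone for signalling proteins, had the most counts. It lies on chromosome 12 (110690605 to 110702728, GRCm38), and 27723 counts came from Cast against 3745 from Mus, 7.4-fold (interval 7.15 to 7.66). The Cast share was 80.5% in the lowest cell, 88.3% in the median cell and 98.4% in the highest, so Cast was ahead in all 47 cells. Tdgf1 (Cripto), a co-receptor of Nodal that marks pluripotent cells, lies on chromosome 9 (110939603 to 110946158) and had 17991 Cast and 7377 Mus counts, 2.44-fold (2.37 to 2.51). Its Cast share ran from 37.1% over a median of 70.5% to 100% and was above 50% in 46 of 47 cells. The annotation holds 2 pseudogenes named after Tdgf1.

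Prdx1, a peroxiredoxin that removes hydrogen peroxide (chromosome 4, 116685544 to 116700822), had 17603 Cast and 6695 Mus counts, 2.63-fold (2.56 to 2.70), with shares of 60.2% to 86.8% (median 72.1%). The glycolytic enzymes Eno1 (2.20-fold, 57.5% to 82.4%) and Pkm (2.28-fold, 52.5% to 90.4%) showed the same direction in all 47 cells. With ratios centred on their median Eno1 was just under 2-fold (log2 0.97). The exons of Pkm overlap those of another gene. Pttg1 (securin), an inhibitor of sister chromatid separation before anaphase, was 4.14-fold higher from Cast. Yet its share reached from 46.6% to 100% (median 81.8%) over cells.

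Under the same limit of 5%, the largest number of counts on the Mus side belonged to Npm1 (nucleophosmin, a nucleolar protein of ribosome assembly; chromosome 11, 33152287 to 33163206). Mus gave 12164 and Cast 2983 counts, 4.08-fold (3.92 to 4.25), and the Cast share stayed between 13% and 26.7% (median 19.4%), so that Mus was ahead in all 47 cells. Trh, the precursor of thyrotropin-releasing hormone (chromosome 6, 92242061 to 92244650), had 6412 Mus and 833 Cast counts, 7.70-fold (7.16 to 8.28). Its Cast share had a median of 0.97% and a range of 0% to 46.9% over 38 cells with at least 10 counts, all with Mus ahead. Reads of Trh were found in 38 of 47 cells.

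Tcl1, a co-activator of Akt that is high in naive pluripotent cells (chromosome 12, 105216750 to 105222793), was 3.77-fold higher from Mus (3.50 to 4.07), with a Cast share of 0% to 90% and a median of 17.9%. In 38 of 40 cells Mus was ahead. Snrpd3, a core protein of spliceosomal particles, was 2.18-fold higher from Mus, with 44 of 47 cells in that direction, and its exons overlap another gene. Itpa, which clears deaminated purine nucleotides, was 2.84-fold higher from Mus by its sum, but 10 of 46 cells had more Cast counts and the range was 11% to 100%. It has 3 pseudogenes named after it.

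**Figure D2:**
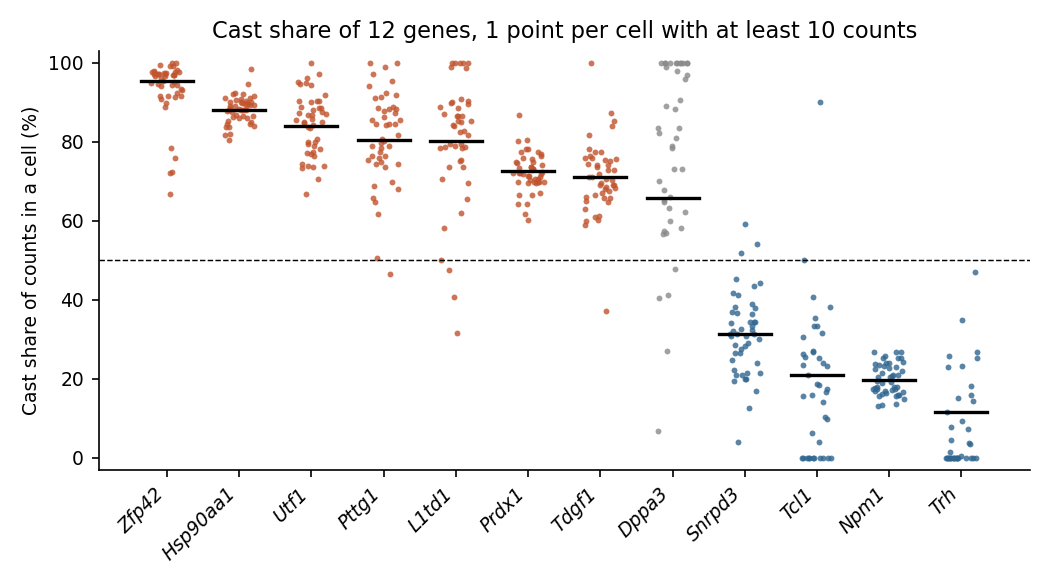
Cast share of the counts of 12 genes, in percent, with 1 point for each cell that had at least 10 counts of the gene and a black line at the share of the summed counts. Orange genes were at least 2-fold higher from Cast, blue genes at least 2-fold higher from Mus and the grey gene (Dppa3) was below 2-fold. Npm1 and Hsp90aa1 form narrow bands, while Tcl1, Pttg1 and Dppa3 spread widely.

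The stretch around the start site is where many cis differences in transcription would lie, so it is shown for 2 genes higher from Cast and 2 higher from Mus. Each line gives 250 bases before and 50 after the RefSeq start of the reference genome (GRCm38.p6), 5′ to 3′ on the strand of the gene. The sequences are those of the reference strain and do not show the differences between Cast and Mus. Capitals mark matches on either strand to the letters TATAAA of the TATA box, to CCAAT, which NF-Y binds, to GGGCGG, which Sp factors bind, and to CACGTG, an E-box. The windows are chr9:110946109-110946408 (minus strand) for Tdgf1, chr4:116685349-116685648 (plus strand) for Prdx1, chr6:92244601-92244900 (minus strand) for Trh and chr12:105222688-105222987 (minus strand) for Tcl1. The first 2 are higher from Cast and the others higher from Mus.
Tdgf1: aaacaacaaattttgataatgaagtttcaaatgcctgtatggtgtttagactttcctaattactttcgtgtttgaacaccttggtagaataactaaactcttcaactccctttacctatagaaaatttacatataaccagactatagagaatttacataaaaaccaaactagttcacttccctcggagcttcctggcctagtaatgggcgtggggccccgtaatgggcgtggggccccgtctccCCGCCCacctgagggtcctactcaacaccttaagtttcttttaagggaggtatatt
Prdx1: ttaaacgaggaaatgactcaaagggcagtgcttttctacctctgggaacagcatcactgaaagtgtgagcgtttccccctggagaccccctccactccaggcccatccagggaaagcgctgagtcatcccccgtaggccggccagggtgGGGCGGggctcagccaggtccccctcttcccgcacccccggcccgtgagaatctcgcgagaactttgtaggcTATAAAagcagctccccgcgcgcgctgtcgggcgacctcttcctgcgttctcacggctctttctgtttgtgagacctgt
Trh: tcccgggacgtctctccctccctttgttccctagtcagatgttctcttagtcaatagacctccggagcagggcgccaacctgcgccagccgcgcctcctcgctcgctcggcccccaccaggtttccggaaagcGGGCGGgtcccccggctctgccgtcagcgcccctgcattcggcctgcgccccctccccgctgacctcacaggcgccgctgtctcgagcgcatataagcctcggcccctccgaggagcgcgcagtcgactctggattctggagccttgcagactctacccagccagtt
Tcl1: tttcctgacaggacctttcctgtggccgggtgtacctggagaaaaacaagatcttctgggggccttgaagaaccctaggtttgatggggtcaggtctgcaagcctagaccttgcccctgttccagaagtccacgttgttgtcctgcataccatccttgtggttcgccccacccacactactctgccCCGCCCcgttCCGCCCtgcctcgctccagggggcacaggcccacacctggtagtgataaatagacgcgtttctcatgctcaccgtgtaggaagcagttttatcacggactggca
Prdx1 holds TATAAA 1 time and GGGCGG 1 time, Tdgf1 and Trh hold GGGCGG 1 time each and Tcl1 2 times. The number of CG dinucleotides was 7 in Tdgf1, 19 in Prdx1, 28 in Trh and 11 in Tcl1. These counts, from 1 reference strain and a few chosen genes, cannot tell which motifs go with either direction.

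A promoter of the RefSeq table was matched to 3009 of the 3729 genes (80.7%), 2980 by symbol and 29 by an older symbol, and the window closest to the annotated 5′ end was taken. TATAAA on either strand was found in 6.21% of these windows and in 14.2% of all 27025 genes of the table. It occurred in 5.93% of genes under 2-fold, in 6.43% of genes at least 2-fold higher from Cast and in 8.45% (18 of 213) of those higher from Mus. In the small group at least 4-fold higher from Mus it was present in 8 of 54 windows (14.8%), against 7.10% of 324 at least 4-fold higher from Cast. CCAAT was present in 41.6%, 42.3% and 37.6% of windows of genes under 2-fold, higher from Cast and higher from Mus, and GGGCGG in 67.8%, 66.3% and 63.4%. Over all matched genes these shares were 41.5% and 67.2%, and 37.9% and 35.9% over the whole table. CACGTG was found in 13.3%, 11% and 9.39%, against 12.5% of all matched genes and 7.24% of the table. The ratio of observed to expected CG dinucleotides had medians of 0.82, 0.81 and 0.75. These differences between groups were not tested.

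For 142 genes under 5% of counts came from Mus, and for 24 genes under 5% came from Cast. Not a single count was from Mus for 35 genes and none from Cast for 5 genes. In this set are Rpl30 (4673 Cast and 0 Mus counts), Hspa8 (17284 and 32), Ndufs5 (2655 and 6), Psma5 (4 and 2086) and Gapdh (58 and 2533). The exons of Rpl30, Hspa8, Psma5 and Gapdh overlap another gene. Pseudogenes named after the gene are annotated for Rpl30 (9) and Gapdh (2). Against a floor of 3 counts over all cells, Rpl30 was at least 1558-fold higher from Cast. Counts per SNP position were not analysed here, and whether the positions within a gene give the same ratio was not tested. Among genes with at least 5% of counts from the lower allele and reads in at least 40 cells, the highest log2 ratios belonged to Zmat2 (4.23), Rps15a (4.22), Rpl15 (4.19) and Rpl28 (4.18). The lowest were those of Rpl35a (-4.24), Rps18 (-3.80), Csnk2a1 (-3.64), the catalytic subunit of casein kinase 2, and Tuba1c (-3.62), an alpha-tubulin. Of these 8 genes, 5 encode ribosomal proteins, which make up 55 of all 3729 genes. Pseudogenes named after them are annotated for all 5, with 8 for Rps15a, 5 for Rpl15, 4 for Rpl28, 6 for Rpl35a and 3 for Rps18. The exons of Rpl15, Rpl28 and Rps18 overlap another gene.

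Gene lists were compared with the whole set, of which 29.2% was past 2-fold. Each of 28 lists with at least 8 genes had between 7.69% and 63.6% of its genes past 2-fold. The median log2 ratio was above 0 in 23 lists, and in 10 lists once ratios were centred on the median of all genes. In 20 lists the median changed sign under at least 1 alternative, and these medians were at most 0.73 in size. In 18 lists genes were past 2-fold in both directions, and in 10 lists in the Cast direction alone. The counts below stand against 21.9% of all genes past 2-fold from Cast and 7.27% from Mus, and for lists of this size a count of 0 from Mus is not read as a trait of the list.

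**Figure D3:**
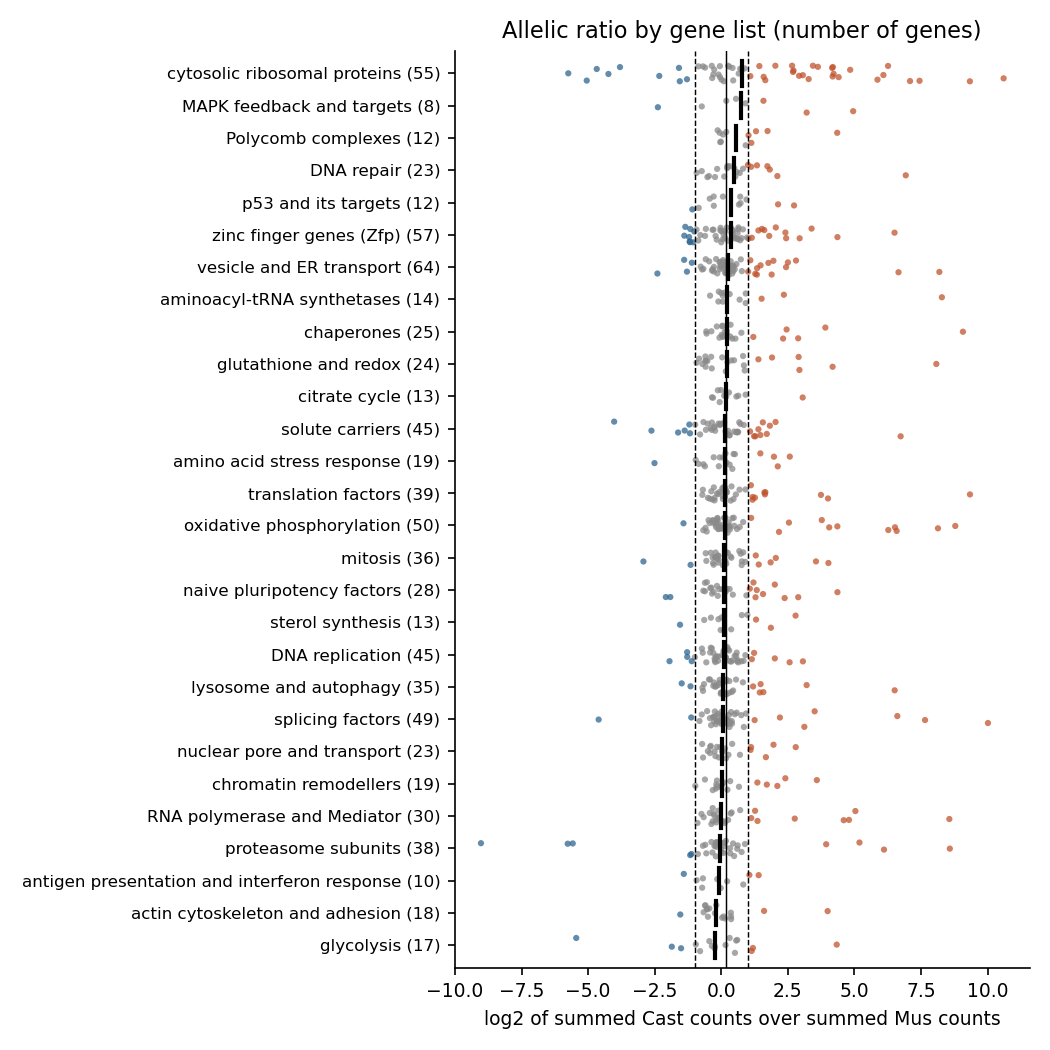
Log2 ratio of summed Cast over summed Mus counts for each gene of 28 lists, with the number of genes in brackets, ordered by the list median (short black bars). Orange and blue points are at least 2-fold higher from Cast or Mus, dashed lines mark 2-fold and the solid line the median of all 3729 genes. Genes with no count of an allele are drawn at their bound against a floor of 3 counts. Ribosomal proteins reach from -5.75 to 10.6, the bound of Rpl30, and most other lists cluster around the line with a tail to the right.

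Naive pluripotency factors keep the self-renewing state, and 33 were in the table and 28 reached the level. Of these, 9 were at least 2-fold higher from Cast and 2 from Mus, with a median log2 ratio of 0.10 against 0.17 for all genes. Zfp42 (Rex1), a zinc finger protein long used as a marker of the naive state, was the highest. It lies on chromosome 8 (43295063 to 43306980) and had 11115 Cast and 540 Mus counts, 20.6-fold (18.9 to 22.5), with a Cast share of 66.7% to 100% (median 96.3%) and all 46 cells with Cast ahead. One pseudogene carries its name. Lin28a, which blocks let-7 maturation, had 393 Cast and 53 Mus counts (log2 2.89), and Cast was ahead in 17 of 18 cells.

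Utf1, a chromatin protein of embryonic stem cells, was 5.20-fold higher from Cast, with shares of 66.7% to 100% (median 85.3%) and Cast ahead in all 46 cells. L1td1, an RNA-binding protein derived from a LINE-1 element, was 4.03-fold higher from Cast in sum, with 42 of 46 cells in that direction. Rif1 (log2 1.57), the ligand Fgf4 (1.33), Klf4 (1.21) and Tbx3 (1.07) were also past 2-fold from Cast, Tbx3 not without the cells of plate row E (0.83). Klf4 was in the reprogramming cassette, as were Pou5f1 and Sox2 below, and reads of the cassette were not separated from those of the genes.

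On the Mus side of this list stood Tcl1 and Dppa2, a DNA-binding protein of early embryos, with 597 Mus and 141 Cast counts (log2 -2.08) and Mus ahead in 27 of 30 cells. The core factors named next were each under 2-fold, and Sox2 was past 1.5-fold. Nanog had a log2 ratio of -0.29, Pou5f1 (Oct4) -0.41, Esrrb -0.08 and Sox2 -0.61, and each of them had cells with either allele ahead. For Pou5f1 Mus was ahead in 30 of 47 cells and Cast in 15, with shares of 7.14% to 66.7%. Dppa3 (Stella), a maternal factor that protects DNA methylation, fell just below 2-fold (log2 0.94), with a Cast share of 6.82% to 100% (median 80.9%) and 38 of 43 cells with Cast ahead. A single cell held 19.5% of its counts, and without that cell the log2 ratio was 1.24, past 2-fold. Fut9 (-0.61) and Klf5 (-0.68) complete the members past 1.5-fold. By the median over cells of the share both were past 2-fold from Mus, with log2 ratios of -2.51 for Fut9 and -1.01 for Klf5.

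Cytosolic ribosomal proteins had the largest share past 2-fold of the 28 lists. Of 55 genes, 26 were at least 2-fold higher from Cast and 9 from Mus (63.6% past 2-fold), and the median log2 ratio was 0.77. They ranged from Rps19 (370 Cast and 19871 Mus counts, log2 -5.75) to Rpl30. Rps19 was steady, with a Cast share of 0.21% to 8.31% in 47 cells. Ribosomal protein genes have many processed copies in the genome. A pseudogene bearing the name of the gene is annotated for 41 of the 55, and 70.7% of these were past 2-fold, against 42.9% of the 14 without. Among other genes 38.4% of 99 with such a pseudogene and 28.4% of 3575 without were past 2-fold. Whether reads of such copies enter the counts was not tested.

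In energy metabolism, 50 subunits of oxidative phosphorylation had a median log2 ratio of 0.14, with 11 past 2-fold from Cast and 1 from Mus. The highest was Ndufs5, a subunit of complex I (log2 8.79), and the only one past 2-fold from Mus was Atp5h of the ATP synthase (-1.42; 1225 Mus and 458 Cast counts, Mus ahead in 42 of 47 cells). The complex II subunits Sdhb (log2 6.27) and Sdhd (846 Cast and 3 Mus counts) were both among the genes higher from Cast. Glycolysis was split, with 3 of 17 genes past 2-fold each way and a median of -0.24. Pgam1 (4.34), Pkm and Eno1 were higher from Cast, and Gapdh (-5.45), Ldhb (-1.86) and Gpi1 (-1.51) were higher from Mus. The citrate cycle had the smallest share past 2-fold, 1 of 13 genes (7.69%). That gene was Pdhb, a subunit of pyruvate dehydrogenase, with 3572 Cast and 429 Mus counts and all 45 cells in the same direction, while Suclg1 was at -0.35.

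Apart from the ribosomal proteins, lists of protein synthesis and turnover had shares past 2-fold from Cast near that of all genes or below it. Translation factors had 10 of 39 genes past 2-fold from Cast (25.6%) and none from Mus, among them Eif3e (1946 Cast and 0 Mus counts) and the elongation factor Eef1a1 (log2 4.01), with Eif4a3 lowest at -0.71. Among 25 chaperones 6 were past 2-fold from Cast and none from Mus, from Hspa8 (9.08) to Hsp90b1 (-0.56). Aminoacyl-tRNA synthetases had 3 of 14 past 2-fold from Cast, and Nars was read from Cast in all 937 counts, while Sars was at -0.42. The proteasome had 4 of 38 genes past 2-fold from Cast and 5 from Mus, with a median of -0.05. Its extremes were Psmd6 (8.58) and Psma5 (-9.03).

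RNA and DNA processing lists were near the whole set or below it. Splicing factors had 7 of 49 genes past 2-fold from Cast and 2 from Mus (18.4%), from Snrpd1 (1036 Cast counts and 1 Mus count) to Srsf3, an SR protein (log2 -4.61), for which Mus was ahead in all 47 cells. DNA replication had 5 of 45 from Cast and 4 from Mus, with Rpa3 highest (3.07; all 47 cells with Cast ahead) and Pole4 lowest (-1.94). Among 36 genes of mitosis 6 and 2 were past 2-fold. Plk1, the polo-like kinase, had 3075 Cast and 189 Mus counts (log2 4.02) with all 45 cells in that direction, and Ccnb1, the cyclin that drives entry into mitosis, had 2893 Mus and 381 Cast counts (-2.92) with all 46 cells in the other. The direction was thus the same in every such cell for each gene, and opposite between them.

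DNA repair had 7 of 23 genes past 2-fold from Cast and none from Mus, with a median of 0.49 that was 0.04 at a minimum mean of 20 counts, from Ercc1 (6.93) to Fanci (-0.93). Polycomb complexes, which repress developmental genes, had 5 of 12 from Cast and none from Mus, with a median of 0.55 that was 0.27 at a minimum mean of 2 counts and 0.92 at 20. Cbx7 was highest (2824 Cast and 138 Mus counts, log2 4.36, all 42 cells with Cast ahead) and Ezh2, the methyltransferase, was lowest at -0.14. Chromatin remodellers (5 of 19 from Cast; Ep400 3.59, Baz2a -0.98), RNA polymerase and Mediator (8 of 30; Gtf2h4 highest with 1137 Cast and 0 Mus counts) and nuclear pore and transport (5 of 23; Nup85 2.80, Rangap1 -0.72) had no gene past 2-fold from Mus either, with Cast shares of 26.3%, 26.7% and 21.7%. Fanci and Baz2a were close to the limit. By the median over cells of the share they were past it (-1.48 and -1.22), as was Fanci without plate row A or E and Baz2a without row A, D, E or F. In 6 genes of DNA methylation no gene was past 2-fold.

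Zinc finger genes of the Zfp series, many of which bind repeats, had 13 of 57 past 2-fold from Cast and 8 from Mus (36.8%), from Zfp219 (273 Cast and 0 Mus counts) to Zfp518b (log2 -1.39). Solute carriers had 10 and 6 of 45, with Slc29a3 lowest (-4.02). Vesicle and ER transport had 14 and 4 of 64 (Snx5 8.19, Snx10 -2.40), lysosome and autophagy 6 and 2 of 35 (Atg14 with 274 Cast and 3 Mus counts, Gaa -1.49) and actin cytoskeleton and adhesion 2 and 1 of 18 (Tpm4 3.99, Actn1 -1.54). Without the 1 cell with most of its counts Actn1 was at -0.57. Genes of the glutathione and redox list were past 2-fold only from Cast, 6 of 24, from Prdx2 (8.08) to Nqo1 (-0.93), which was past 2-fold from Mus without plate row A, B, E or G, without cell B4 (-1.09) and by the median over cells of the share (-1.09).

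The remaining lists were small. Amino acid stress response genes had 4 of 19 past 2-fold from Cast and 1 from Mus (Trib3 2.57, Nupr1 -2.51), sterol synthesis 3 and 1 of 13 (Dhcr7 2.79, Srebf2 -1.55) and p53 and its targets 2 and 1 of 12 (Aen 2.73, Pmaip1 -1.09). Antigen presentation and interferon response had 2 and 1 of 10 (Zc3hav1 1.40, B2m -1.41). MAPK feedback and target genes, which report FGF signalling, had 3 and 1 of 8, with Junb highest (4.95) and Etv4 lowest (-2.38). Genes of the mitochondrial ribosome were not analysed here.

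Genes listed as imprinted, meaning expressed according to the parent in at least some tissues, were few. Whether each of them is imprinted in iPSCs was not tested. Among 5 paternally expressed genes that reached the level, Peg3 (log2 5.04), Impact (3.40) and Snrpn (2.60) were past 2-fold from Cast, the paternal allele, Slc38a4 was at 0.48 and Plagl1 was past 2-fold from Mus (-1.99). Among 4 maternally expressed genes Grb10 was past 2-fold from Mus, the maternal allele (-1.35), and Cd81 (-0.25), Tssc4 (-0.08) and Ube3a (0.51) were not past 2-fold. Plagl1 had 264 counts in all, 211 from Mus and 53 from Cast, with 7 cells of at least 10 counts, and Mus was ahead in 5 of them.

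The steadiness of a difference from cell to cell was measured in 2223 genes with at least 10 counts in at least 20 cells. The other 1506 genes did not reach this and are not described. The SD of the Cast share over cells had a median of 25.0 percentage points, where binomial sampling at the same counts would give 9.70 points. Their ratio, the relative spread, had a median of 2.67 (quartiles 2.14 and 3.16). It was under 1.5 in 102 of 2198 genes where it could be computed. Part of this excess is built in, since counts are not independent molecules.

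A gene was called steady where it was past 2-fold and the same allele was ahead in at least 95% of its cells. This held for 241 genes higher from Cast (10.8% of the 2223) and 31 higher from Mus (1.39%), together 272 (12.2%), and 155 without genes with under 5% of counts from the lower allele. Of 459 genes past 2-fold from Cast 52.5% were steady, and of 116 past 2-fold from Mus 26.7%. Between 2-fold and 4-fold these shares were 16.4% of 213 and 2.56% of 78, and from 4-fold on 83.7% of 246 and 76.3% of 38. A gene past 2-fold in the sum was therefore often not past 50% in every cell. The median share of cells with the same allele ahead was 53.2% for genes with alleles within 25% of each other, 60.6% from there to 1.5-fold, 68.8% from 1.5-fold to 2-fold, 81.8% from 2-fold to 4-fold and 100% from 4-fold on.

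**Figure D4:**
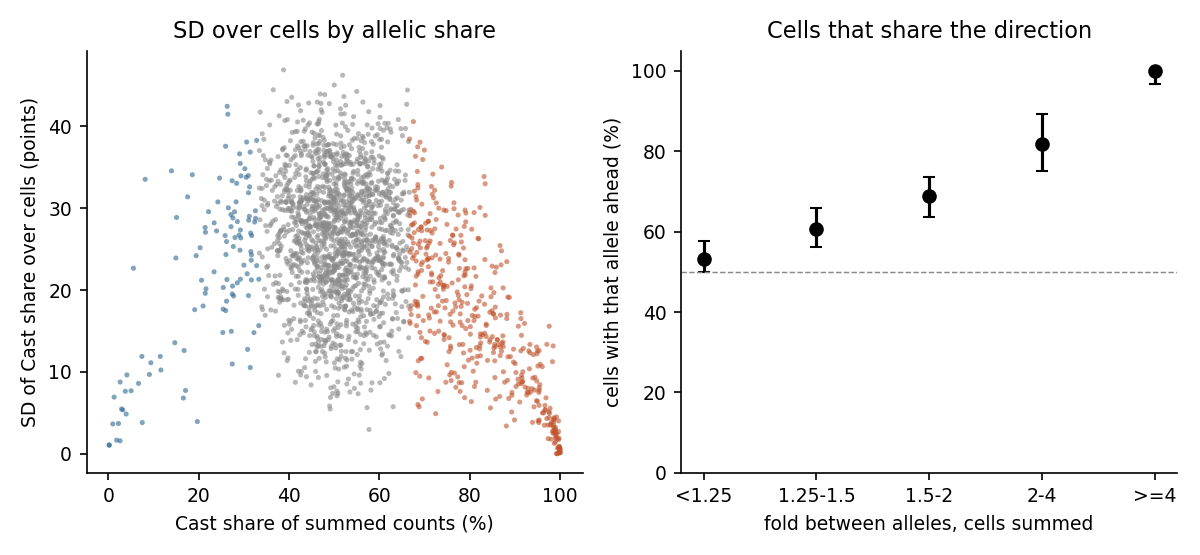
Left, SD over cells of the Cast share of a gene, in percentage points, against its Cast share in the summed counts, with orange and blue for genes at least 2-fold higher from Cast or Mus. Right, percent of cells in which the allele that is ahead in the sum is ahead, by the fold between alleles, with the median over genes and bars from the lower to the upper quartile. Genes near 50% reach SDs above 40 points, and the median rises from 53.2% to 100%.

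The SD was smaller in genes with more counts. The median SD was 29.4 points in genes with 10 to 20 counts per cell and 12.5 points from 100 counts per cell on, while the relative spread was 2.62 and 2.98. In balanced genes, with alleles within 25% of each other, a cell with at least 10 counts had reads of 1 allele only in 3180 of 29977 values (10.6%). For the 71 balanced genes that averaged 100 or more counts over the cells, this was so in 45 of 3324 values (1.35%). The relative spread did not shrink with counts, but values read from 1 allele alone were rarer in balanced genes with high average counts.

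Among genes past 2-fold with enough cells, the smallest relative spread was found in Eri1, Frg1 and Gemin5 (0.00, all reads in such cells from Cast) and Tmem39a (0.36), which have under 5% of counts from Mus. To see the same among genes with both alleles, the smallest values were looked up after the values were seen. They belonged to Kti12 (1.20) and Tuba1c (1.20). Tuba1c had Cast shares of 0% to 17.4% (median 6.58%) in 46 cells, all with Mus ahead, and an SD of 3.80 points against 3.16 points from sampling. Kti12 had 80.0% to 100% in 29 cells, all with Cast ahead. These differences were close to as even over cells as sampling allows.

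The largest relative spread among genes past 2-fold with enough cells was seen in Ckap4 (5.32), Slc4a5 (5.26), Pttg1 (5.20) and 4930461G14Rik (4.85). Ckap4 had 609 Mus and 54 Cast counts, and the median cell had no Cast count, yet in 3 of 21 cells Cast was ahead, up to 100%. For Slc4a5 this was so in 4 of 25 cells and for 4930461G14Rik in 2 of 28. A minority of cells with the opposite allele thus stood beside a majority with 1 allele. Pttg1 differed from these, with 46 of 47 cells on the Cast side and values between 46.6% and 100%.

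Chromosomes differed in how far they leaned to Cast. The median log2 ratio over genes was 0.62 on chromosome 14, 0.55 on chromosome 8 and 0.35 on chromosome 4, and -0.01 on chromosomes 10 and 16. Genes at least 2-fold higher from Cast were 38.4% of 138 on chromosome 14 and 37.1% of 237 on chromosome 8, but 10.7% of 196 on chromosome 10, where 11.2% were higher from Mus. On 8 of 18 autosomes Cast took over 50% of counts in every cell, on 4 without genes with under 5% of counts from the lower allele and on 5 without the 26 windows described below. The median cell had a Cast share between 49.9% (chromosome 10) and 67.8% (chromosome 14).

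**Figure D5:**
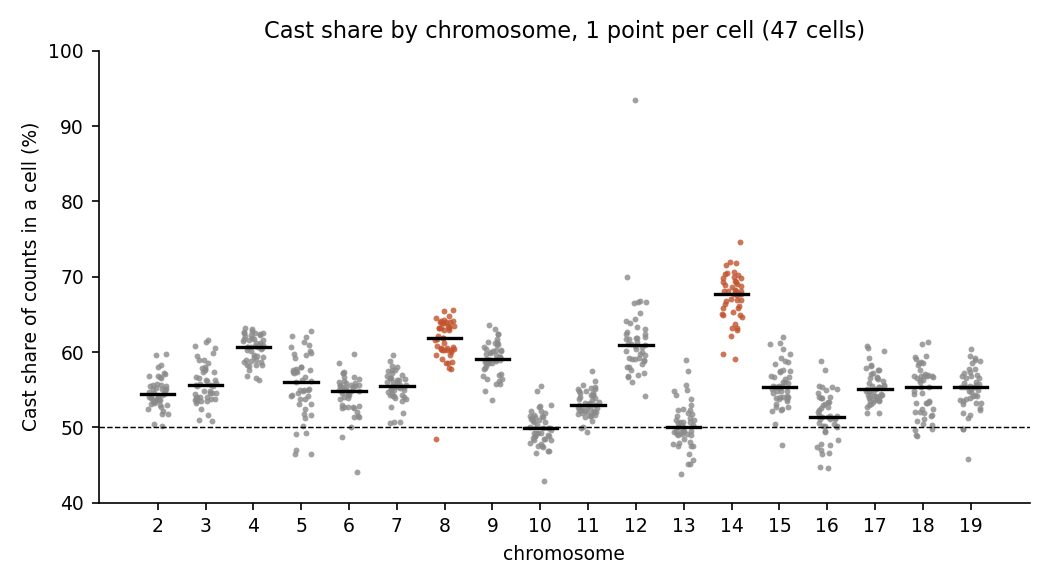
Cast share of the counts of the included genes, in percent, by chromosome, with 1 point per cell and a black line at the median cell. Chromosomes 8 and 14 are in orange. The single point at 93.5% on chromosome 12 is cell B4, and the low point at 48.4% on chromosome 8 is cell C1.

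Cells B4 and C1 stood farthest apart from the others, on chromosomes 12 and 8. In cell B4 the Cast share on chromosome 12 was 93.5%, where the other cells had 54.2% to 69.9%. Of 63 genes with at least 10 counts there, 48 had all counts from Cast. From 30 Mb on, a boundary chosen after the values were seen, 41 of 46 genes had Cast counts alone and the alleles had 2356 Cast and 34 Mus counts, while before it 6 of 17 genes had Mus ahead. As a share of all included counts of the cell, Mus counts of chromosome 12 were 0.150% in B4 and 1.16% to 1.98% elsewhere, and Cast counts were 2.16%, within the 1.89% to 2.79% of the others. Hsp90aa1, on this chromosome, had its highest share in B4 (98.4%), and without B4 its range was 80.5% to 94.6% and its log2 ratio 2.86. Tcl1 had 0 counts in B4.

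In cell C1 the Cast share on chromosome 8 was 48.4%, and 57.8% to 65.7% in the others. Mus counts of chromosome 8 made up 4.38% of the included counts in C1 and 1.83% to 2.66% elsewhere, and Cast counts 4.11%, within the 3.30% to 4.42% of the others. The difference in each of these cells was thus carried by the Mus counts. For all other chromosomes and cells, 844 of 846 values in total, the mean deviation of genes from their average was under 10 percentage points. Just under it were B4 on chromosome 16 (-9.87 points, a Cast share of 44.6%) and D2 on chromosome 17 (9.82 points, 60.5%).

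Some stretches of the chromosomes leaned to Cast. Along the chromosomes, 26 of 266 windows of 5 Mb with at least 5 genes had a median log2 ratio of at least 1, on 12 chromosomes, and none had a median of -1 or less (lowest -0.61). They held 244 genes, 6.54% of the set, but 170 of the genes at least 2-fold higher from Cast (20.8%) and 116 of those at least 4-fold higher (28.8%). Only 6 genes (2.21%) of those higher from Mus were in them. Chromosome 8 had 6 such windows and chromosome 14 had 2. These windows were chosen by the ratios, so their counts are a description. Outside them 18.6% of genes were at least 2-fold higher from Cast and 7.60% from Mus.

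Of the 26 windows, the one with most genes reaches from 70 to 75 Mb on chromosome 8. It had 17 of 24 genes at least 2-fold higher from Cast and none from Mus, and a median of 2.44. In the order of the chromosome, Cope, a subunit of the COPI coat, had 908 Cast and 9 Mus counts, Isyna1, which makes inositol phosphate, 429 and 0, and Pgls, of the pentose phosphate pathway, 811 and 0. Between them were genes near balance, such as Lsm4 (2675 Cast and 2104 Mus counts, Cast ahead in 34 of 47 cells) and Bst2 (758 and 770). From Pgls to the end of the window all 9 genes were past 2-fold from Cast, and the genes below 2-fold all lay before it. Of the next in size, with 18 genes each, chromosome 7 from 15 to 20 Mb had 14 of 18 genes at least 2-fold higher from Cast, among them Tmem160 (1710 and 0), Sae1 (2416 and 124) and Ercc1 (975 and 8), while Selenow (104 and 340) was higher from Mus.

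Zfp42 and Frg1 share a window on chromosome 8 (40 to 45 Mb, 6 of 8 genes, median 1.94), and Prdx2 and Junb another (80 to 85 Mb, 14 of 18 genes, median 2.35). The exons of Prdx2 and of Junb overlap another gene, and the annotated spans of these 2 genes overlap each other. Rpl30 (chromosome 15, 30 to 35 Mb), Hspa8 (chromosome 9, 40 to 45 Mb) and Snx5 (chromosome 2, 140 to 145 Mb) also lay in such windows. Several of the list extremes named above were thus found in regions where neighbours leaned to Cast too.

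In such windows, which were chosen by their ratios, 59 of 244 genes had under 5% of counts from the lower allele, against 107 of 3485 elsewhere. Between direct neighbours at most 1 Mb apart, 38.7% of 690 genes at least 2-fold higher from Cast were followed by another such gene, against 21.9% of all genes, and 11.8% of 228 genes at least 2-fold higher from Mus, against 7.27%. At 4-fold this was so for 33.5% of 337 genes from Cast, against 10.8%, and for 6.45% of 62 from Mus (4 genes), against 1.96%. Both alleles thus had more such neighbours than their share of all genes. Over all genes, the Spearman correlation of log2 ratios between neighbours was 0.21 (3711 pairs), 0.13 at 2 genes apart, 0.05 at 10 and 0.02 at 40. This is a description, since genes are not independent and share cells and library. Genes whose exons overlap another gene, 1355 of the 3729, were kept among these pairs. Whether reads shared by such neighbours add to the neighbour values was not tested.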

How the data were processed

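Single iPSCs were profiled by a Smart-seq2-like full-length protocol on 1 plate. Per the labels, STAR 2.5.3a and SAMtools were used with mm10. The study's methods for its plate libraries describe alignment to a genome with SNPs between 129S1_SvImJ, which stands for Mus, and CAST_EiJ masked, assignment of reads with SNPsplit, and counts at SNP positions summed per gene for genes with at least 4 SNPs. A separate description for this plate, and whether strand was used, were not given in the sources used here. The authors deposited raw counts per gene with 1 column per allele and cell, and these were used as they are. Reads over several SNPs can be counted more than once.

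Counts were summed over 47 cells in Python 3.11.15. The packages were pandas 2.3.3 for tables, numpy 2.4.6 and scipy 1.17.1 for the numbers and matplotlib 3.10.9 for plots. Genes were placed by GENCODE M21 (13945 genes) or RefSeq (1 gene), and 1 gene was left out. Where 1 allele had no count, a floor of 3 stood in for its sum. No p-value was computed, since the labels name no separate cultures and cells were not taken as replicates, and lists are described by counts and medians beside all genes. The scripts were tested on simulated data. The gene set, the lists and the limits were chosen with earlier results of these data known. Named genes are, among those with at least 5% of counts from the lower allele, the 6 with most counts past 2-fold from each allele and the 4 highest and lowest ratios with reads in at least 40 cells. They are also the 4 smallest and 4 largest relative spreads, naive pluripotency factors past 1.5-fold, and the highest and lowest gene of each list with at least 8 genes. Other genes were chosen after their values were seen. Overlapping exons and named pseudogenes are given for some genes only. Alternatives covered the minimum counts, the fold limit, centring, the weight of cells, plate rows, chromosomes and overlapping genes. A few genes that this rule names are not reported here.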

Additional observations from a re-analysis of the deposited data

How the results depend on the processing

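Of 306 recomputed answers 286 kept to within 1.5 times of the count or within 1 SD of the value, and 20 moved. None of these answers is a log2 ratio past 2-fold, so a change of sign could not be counted among them. With a minimum mean of 2 counts, 1405 of 5823 genes were at least 2-fold higher from Cast and 567 from Mus. With 20 counts these were 260 and 71 of 1300 genes, so the number of genes compared changed too. A limit of a 25% difference gave 1590 and 885 genes and a limit of 4-fold 403 and 73. Centring set the median log2 ratio to 0.00 and left 10 lists with a median above 0. The median over cells in place of the sum gave a median log2 ratio of 0.23 and 1064 genes past 2-fold from Cast and 557 from Mus, and including chromosome 1 gave 0.23. Without genes with under 5% of counts from the lower allele 155 genes were steady and 4 autosomes were above 50% Cast in every cell. Without genes whose exons overlap another gene 533 of 2374 genes were higher from Cast and 181 genes were steady. The relative spread was 2.43 with at least 5 counts in a cell and 2.81 with at least 20. Among alternatives added after the data were seen, leaving out the 26 windows gave 647 genes from Cast, 265 from Mus, 196 steady genes and 5 autosomes, leaving out genes with a named pseudogene 767 and 254, and leaving out cell B4 814 and 272. Leaving out 1 plate row or chromosome at a time gave 729 to 855 genes from Cast, 244 to 291 from Mus, 243 to 268 steady genes, a median log2 ratio of 0.15 to 0.19, a relative spread of 2.60 to 2.68, 20 to 25 lists above 0 and 7 to 10 autosomes. In the smaller results, 341 of 1175 list medians and 42 of 3626 ratios of named genes moved. The sign changed in 76 of the list medians, all of lists under 2-fold and 13 of them by centring, and in 0 of the named ratios. The cause of these shifts was not tested.

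No fit with a replicate number as a block was made, since no replicate numbers in the labels are shared between groups. Each ratio sets the 2 alleles of the same cells against each other. The low counts of most genes, a median of 13.4 per cell, limit what can be said of single cells. Pooled PCR counts without molecular identifiers make every counting interval too narrow. Single plate rows decided some calls. Log2 ratios were 0.98, 0.95 and 0.83 for Tbx3 without row A, C or E. Without row C they were 1.30 for Dppa3 and -0.65 for Actn1, and without row D -0.94 for Pmaip1 and -0.74 for B2m. Zfp518b was at -0.98 without row B and Gaa at -0.96 without row F. Not all of these were near the limit. With all cells Actn1 was at -1.54, Gaa at -1.49, B2m at -1.41 and Zfp518b at -1.39. Fanci was past 2-fold from Mus without row A or E (-1.15 and -1.16), Baz2a without row A, D, E or F (-1.14, -1.08, -1.17 and -1.09) and Nqo1 without row A, B, E or G (-1.12, -1.19, -1.01 and -1.01). With centring these 3 genes were at -1.10, -1.14 and -1.10, and by the median over cells of the share at -1.48, -1.22 and -1.09.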
